A study of Homo sapiens with 7 samples.

Results

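Proteoglycans are proteins that carry glycosaminoglycan chains, and 10 genes of this kind were followed here: Dcn, Bgn, Lum and Fmod of the small leucine-rich repeat proteoglycans, Vcan of the large chondroitin sulfate proteoglycans, the syndecans Sdc1, Sdc2 and Sdc4, the glypican Gpc1, and Cd44. They were taken by symbol from the 22062 rows of the deposited tables, where each of the 10 symbols has 1 row. RNA sequencing libraries of 4 samples given PTH (parathyroid hormone) were compared with those of 3 samples given PBS (buffered saline). All 7 are labelled as LX2 cells, a single immortalised line derived from human hepatic stellate cells, with liver as the tissue. The design note of the series speaks of mice and every identifier in the tables is a rat Ensembl gene, so rat symbols are used, no coordinates or sequences are printed, and the species of the cells was not settled. No dose or duration is stated, nor whether each library is a culture of its own, so the p-values cover variation among 7 libraries that could be technical repeats.

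Small leucine-rich proteoglycans are secreted proteins that bind collagen fibrils and hold growth factors such as TGF-beta in the matrix. Versican forms large hydrated aggregates with hyaluronan, and CD44 is the main cell-surface receptor for hyaluronan. Syndecans span the membrane and glypicans are tied to it by a lipid anchor, and their heparan sulfate chains bind growth factors, chemokines and matrix proteins. In the liver, activated stellate cells are the main source of matrix proteoglycans, and decorin and biglycan are known for their deposition in fibrotic septa.

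Levels are FPKM, fragment numbers divided by transcript length and by library size, so they can be compared between genes. The summed FPKM was 472621 to 509859 in PTH libraries and 519845 to 532909 in PBS libraries, and read depth is unknown. Mitochondrially encoded mRNAs took 0.867, 3.61, 2.40 and 3.03% of the sum in PTH libraries 1 to 4, against 5.87, 5.78 and 5.90% in PBS libraries 1 to 3. Of the 14 listed stellate markers 9 passed the filter described below, and Vim and Col1a1 stood at 856 to 987 and 338 to 635 FPKM in PTH libraries, against 669 to 729 and 284 to 298 FPKM in PBS libraries. Acta2 was at 2.03 FPKM or less in every library, and Lrat, Reln and Rgs5 were listed at 0 in all 7. Pdgfra and Thy1 were at 0.334 FPKM or less, so 5 of the 14 had a mean under 1 FPKM and the labelled cell type is matched by only some of its markers. Among markers of other cell types Alb, Ptprc and Kdr were listed at 0 in all 7 libraries, and the summed level was at most 0.866 FPKM in PTH libraries and 0.438 FPKM in PBS libraries for 8 hepatocyte markers, and at most 0.432 and 0.628 FPKM for 6 endothelial markers. The 8 leukocyte markers summed to 13.1 to 18.7 FPKM in PTH libraries and 14.7 to 20.9 FPKM in PBS libraries, nearly all of it Cd14. Of the 6 cholangiocyte markers Sox9 was listed at 0, and their sum, 284 to 323 FPKM in PTH libraries and 344 to 354 FPKM in PBS libraries, was nearly all Spp1. The sums of this last list do not overlap between the groups. Nor do those of the 14 stellate markers, at 1364 to 1867 FPKM in PTH libraries and 1079 to 1162 FPKM in PBS libraries. Among all tested genes 20.8% had every PTH library below every PBS library, and 12.7% had every one above. Of the 9 stellate markers 1, Vim, was called higher by the test below and 0 lower, against 3.45 and 7.96% of all tested genes. The part of either list in the results was not tested.

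Decorin, syndecan 4 and CD44 transcripts fell with PTH, and none of the 8 tested genes among the 10 was called higher. Dcn fell 2.47-fold in mean FPKM, Sdc4 1.37-fold and Cd44 1.30-fold, so the largest relative fall was in a gene with low levels and the other falls were in genes with high ones. Biglycan, syndecan 1, syndecan 2, versican and glypican 1 did not pass the test. Lum and Fmod stood too low to be tested.

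The test was the moderated test of limma on log2(FPKM + 1), two-sided, across the 10662 genes whose mean over the 7 libraries reached 1 FPKM. Calls required a p under 0.05 after Benjamini-Hochberg adjustment over all of these genes. Of the 10 genes 8 were tested, 3 were called lower and 0 higher, with 4 lower and 0 higher at an unadjusted p under 0.05, a level that 21.7% of all tested genes passed as lower and 12.2% as higher. Over all tested genes 849 were called lower, which is 7.96%, and 368 higher, which is 3.45%. Every PTH library lay below every PBS library for 3 of the 8 tested genes, against 20.8% of all tested genes. The median log2 fold change was -0.24 over the 8 genes and -0.04 over all tested genes. The share of higher genes among all calls was 30.2%, but 53.7% after quantile normalization, 51.7% after median centring and 50.9% after rescaling without mitochondrial mRNAs, so the balance of calls depends on scaling.

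**Figure D1:**
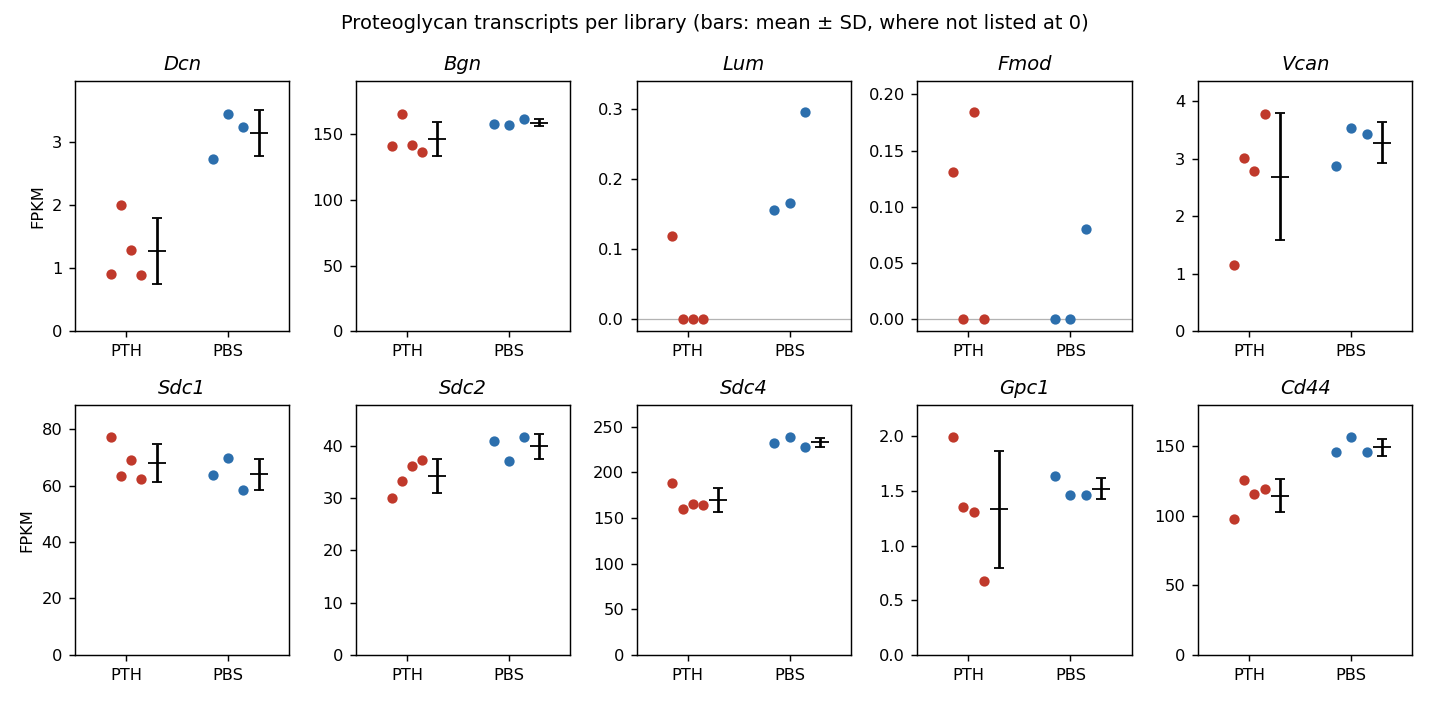
FPKM (vertical axes, linear) of the 10 proteoglycan genes in the 4 PTH libraries (red, left) and the 3 PBS libraries (blue, right), each point 1 library and the black bars mean ± SD, left out for Lum and Fmod, which have libraries listed at 0. Dcn, Sdc4 and Cd44 have every PTH library below every PBS library, while the groups overlap for Bgn, Vcan, Sdc1, Sdc2 and Gpc1.

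Decorin binds collagen and TGF-beta through its core protein and carries 1 chondroitin or dermatan sulfate chain. Dcn (ENSRNOG00000004554) stood at 0.911, 2.00, 1.29 and 0.886 FPKM in PTH libraries 1 to 4, against 2.73, 3.45 and 3.23 FPKM in PBS libraries 1 to 3. All 4 PTH libraries were below the lowest PBS library, with PTH library 2 the nearest to it. The means were 1.27 ± 0.521 FPKM with PTH (SD, n = 4) and 3.14 ± 0.366 FPKM with PBS (SD, n = 3). The log2 fold change was -0.89 ± 0.21 (SE) with a limma adjusted p of 0.0384, and the 95% interval ran from -1.36 to -0.42. An exact permutation test over the 35 assignments of the libraries gave p = 0.0571 for Dcn, the smallest it can give. This scale understates the change of low genes, and with a pseudocount of 0.1 in place of 1 the log2 fold change of Dcn was -1.30, the value the authors' deposited table also gives (-1.30, FDR 0.0148). Among tested genes Dcn lay at the 6.46th percentile of level and at the 2.03rd percentile of log2 fold change.

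Biglycan, the closest relative of decorin in this family, was present at far higher levels. Bgn stood at 141, 166, 142 and 137 FPKM in PTH libraries 1 to 4 and at 158, 157 and 162 FPKM in PBS libraries 1 to 3. PTH library 2 was above all PBS libraries and the other 3 PTH libraries were below them. Its log2 fold change was -0.12 ± 0.08 (SE), with a limma adjusted p of 0.291 and a 95% interval from -0.30 to 0.05. Without PTH library 2 the log2 fold change was -0.18 and the limma adjusted p 0.0386, so Bgn passed in that fit. Over all tested genes the same fit called 825 higher and 1925 lower, against 368 and 849 with all 7 libraries. Bgn also passed with all 7 libraries under sample quality weights (limma adjusted p 0.0124). GC correction moved the log2 fold change of Bgn to -0.30, with an adjusted p of 0.0823.

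The ratio of Bgn to Dcn within a library does not depend on scaling between libraries. It was 155, 82.7, 110 and 154 in PTH libraries 1 to 4, against 57.7, 45.5 and 50.1 in PBS libraries 1 to 3. All PTH ratios were above all PBS ratios, and they varied more among themselves. Bgn made up 98.8 to 99.4% of the summed FPKM of Dcn, Bgn, Lum and Fmod in PTH libraries and 97.7 to 98.2% in PBS libraries. Bgn thus made up nearly all of the summed level of these 4 genes in both groups.

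Lumican and fibromodulin, keratan sulfate proteoglycans that also bind collagen, were near the bottom of the scale. Lum was at 0.119 FPKM in PTH library 1 and listed at 0 in PTH libraries 2, 3 and 4, against 0.156, 0.166 and 0.296 FPKM in PBS libraries 1 to 3. Fmod was at 0.131 and 0.184 FPKM in PTH libraries 1 and 3 and listed at 0 in the other two, against 0.0801 FPKM in PBS library 3 and a listed 0 in the others. Neither reached the mean of 1 FPKM needed for the test, and the authors' deposited table gives both a p-value of 1. The PTH values of Lum lie below its PBS values, but at this level the difference cannot be judged.

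Versican stood at 1.16, 3.02, 2.78 and 3.79 FPKM in PTH libraries 1 to 4, against 2.88, 3.54 and 3.43 FPKM in PBS libraries 1 to 3. PTH library 1 held the lowest Vcan value and PTH library 4 the highest, so the groups overlap. The log2 fold change of Vcan was -0.27 ± 0.26 (SE), with a limma adjusted p of 0.495 and a 95% interval from -0.87 to 0.33. It was -0.033 without PTH library 1. With the mitochondrial share as a covariate it was 1.002, with an adjusted p of 0.302.

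Syndecan 4, a focal adhesion component that works together with integrins, was the most abundant of the 10 transcripts. Sdc4 (ENSRNOG00000014297) stood at 188, 160, 166 and 164 FPKM in PTH libraries 1 to 4, against 232, 238 and 228 FPKM in PBS libraries 1 to 3. The PTH libraries were all lower. The means were 170 ± 12.8 FPKM with PTH (SD, n = 4) and 233 ± 5.27 FPKM with PBS (SD, n = 3), and Sdc4 lay at the 96.4th percentile of level among tested genes. On the log2 scale Sdc4 changed by -0.46 ± 0.07 (SE) with a limma adjusted p of 0.0172, the smallest adjusted p of the 10 genes, and a 95% interval from -0.62 to -0.30. The exact permutation test gave p = 0.0571 for Sdc4, and the authors' deposited table has -0.46 on the log2 scale with an FDR of 6.51e-04.

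The other syndecans were not called. Syndecan 1, the main syndecan of epithelia and plasma cells, stood at 77.1, 63.4, 69.2 and 62.4 FPKM in PTH libraries 1 to 4 and at 63.7, 69.7 and 58.5 FPKM in PBS libraries 1 to 3. The groups overlap, and the log2 fold change of Sdc1 was 0.09 ± 0.10 (SE) with a limma adjusted p of 0.553 and a 95% interval from -0.13 to 0.30. Its sign turned with GC correction (-0.081) and when the mitochondrial share was fitted as a covariate (-0.31). Syndecan 2, typical of mesenchymal cells, stood at 30.1, 33.3, 36.1 and 37.4 FPKM in PTH libraries 1 to 4 and at 41.0, 37.2 and 41.7 FPKM in PBS libraries 1 to 3. Only PTH library 4 reached the lowest PBS value of Sdc2. The log2 fold change of Sdc2 was -0.22 ± 0.09 (SE) with an unadjusted limma p of 0.0422 and an adjusted p of 0.134, and it turned to 0.041 when the mitochondrial share was fitted too.

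The make-up of the syndecan transcripts was compared within libraries, which does not depend on scaling between them. Sdc4 took 63.7, 62.3, 61.1 and 62.2% of the summed FPKM of Sdc1, Sdc2 and Sdc4 in PTH libraries 1 to 4, against 68.9, 69.0 and 69.5% in PBS libraries 1 to 3. Sdc1 took 23.6 to 26.1% in PTH libraries and 17.8 to 20.2% in PBS libraries, while the Sdc2 shares overlap, at 10.2 to 14.1% and 10.8 to 12.7%. There were 2.39 to 2.64 times as many FPKM of Sdc4 as of Sdc1 in PTH libraries and 3.42 to 3.89 times as many in PBS libraries, with no overlap. The ratio of Sdc4 to Sdc2 overlaps, at 4.401 to 6.26 in PTH libraries and 5.47 to 6.41 in PBS libraries. These shares and ratios are descriptions and carry no test.

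**Figure D2:**
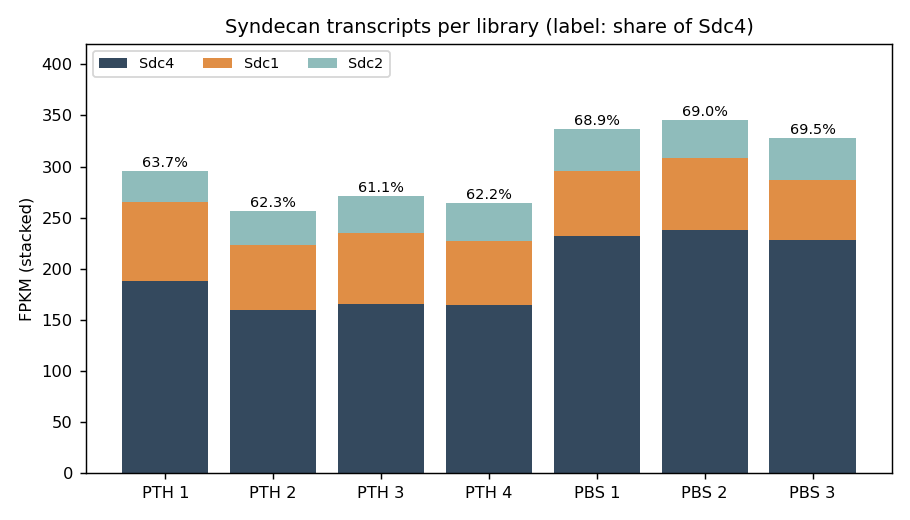
Stacked FPKM of Sdc4, Sdc1 and Sdc2 (vertical axis, linear, from 0) in each of the 4 PTH and 3 PBS libraries, with the share of Sdc4 printed above each bar. The summed level lies between 256 and 295 FPKM in PTH libraries and between 328 and 345 FPKM in PBS libraries, and the Sdc4 share is lower in every PTH library.

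Glypican 1, a heparan sulfate proteoglycan that binds FGFs, was low and variable. Gpc1 stood at 1.99, 1.35, 1.31 and 0.677 FPKM in PTH libraries 1 to 4 and at 1.64, 1.46 and 1.46 FPKM in PBS libraries 1 to 3. PTH library 1 was above all PBS libraries and the other 3 PTH libraries below them. For Gpc1 the log2 fold change was -0.14 ± 0.22 (SE) with a limma adjusted p of 0.677 and a 95% interval from -0.64 to 0.36, and it was 0.0068 without PTH library 4.

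CD44 is a proteoglycan in some of its splice forms, which gene-level values do not separate. Cd44 (ENSRNOG00000006094) stood at 97.6, 126, 116 and 119 FPKM in PTH libraries 1 to 4, against 146, 157 and 146 FPKM in PBS libraries 1 to 3. All PTH libraries were lower, and PTH library 1 was the lowest. The means were 115 ± 12.1 FPKM with PTH (SD, n = 4) and 150 ± 6.08 FPKM with PBS (SD, n = 3). For Cd44 the log2 fold change was -0.39 ± 0.09 (SE) with a limma adjusted p of 0.0391 and a 95% interval from -0.59 to -0.18, and the exact permutation test gave p = 0.0571. In the authors' deposited table Cd44 has -0.38 on the log2 scale and an FDR of 0.0120.

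**Figure D3:**
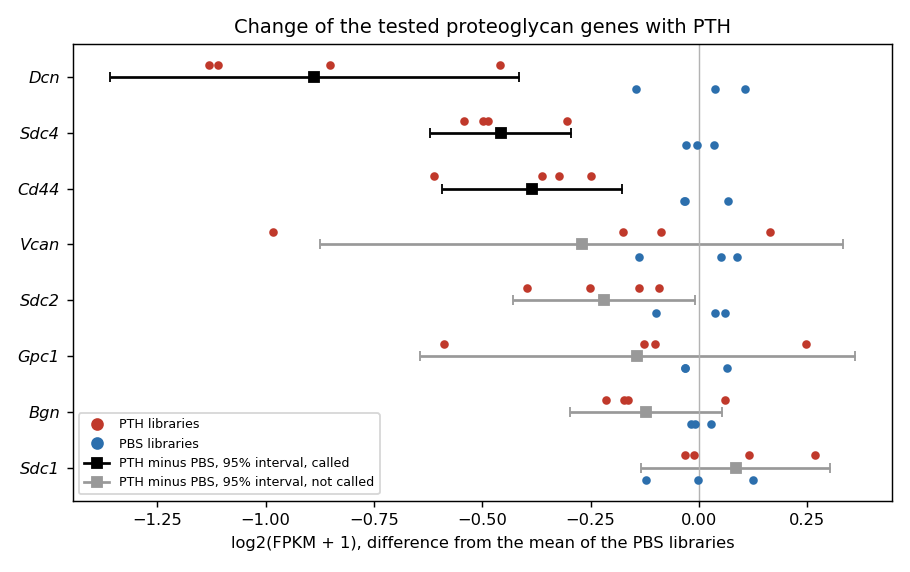
Log2 fold change of the 8 tested proteoglycan genes (squares, PTH minus PBS on the log2(FPKM + 1) scale, with 95% interval) and each library's difference from the PBS mean (red points, PTH; blue points, PBS). The intervals of Dcn, Sdc4, Cd44 and Sdc2 lie below 0, and only the first 3 of these are called after adjustment over all genes.

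The calls of Dcn, Sdc4 and Cd44 depend on which library is left out, as does the number of calls over all tested genes. Without PBS library 1, 2 or 3 the limma adjusted p was 0.152, 0.126 and 0.102 for Dcn, 0.113, 0.0940 and 0.0617 for Sdc4, and 0.157, 0.131 and 0.0997 for Cd44. Without PTH library 3 it was 0.103 for Dcn, 0.0690 for Sdc4 and 0.105 for Cd44, and without PTH library 4 it was 0.0658 for Dcn and 0.0620 for Cd44, while Sdc4 kept its call at 0.0444. All 3 genes kept the call without PTH library 1 or 2. With all 7 libraries 849 of all tested genes were called lower and 368 higher. Dropping PTH library 3 or 4 cut the lower calls to 69 or 172 and the higher ones to 14 or 63. Dropping PBS library 1, 2 or 3 cut them to 25, 39 or 92 lower and 3, 8 or 29 higher. Both counts grew when PTH library 1 (916 lower, 414 higher) or PTH library 2 (1925 lower, 825 higher) was dropped. The lost calls were thus not particular to these 3 genes. The log2 fold change stayed between -1.03 and -0.81 for Dcn, between -0.51 and -0.43 for Sdc4 and between -0.43 and -0.31 for Cd44 whichever library was left out. The mitochondrial share, given above, differs between the groups in every library. With it as a covariate the log2 fold change was -0.32 for Dcn with an adjusted p of 0.767, -0.75 for Sdc4 with an adjusted p of 0.0539, and 0.051 for Cd44 with an adjusted p of 0.859, so Cd44 lost its direction. No PTH library reaches the share of any PBS library, so this fit extrapolates between the groups. Over all tested genes it called 0 higher and 1 lower.

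**Figure D4:**
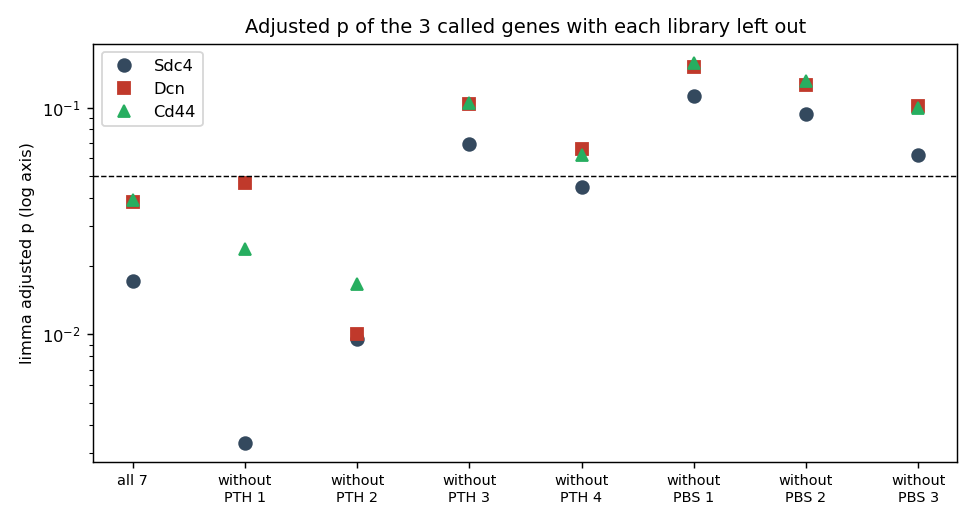
Limma adjusted p (vertical axis, log scale) of Sdc4, Dcn and Cd44 with all 7 libraries and with each library left out, the dashed line at 0.05. All 3 lie under the line with all libraries and without PTH library 1 or 2, and all 3 lie above it without PTH library 3 or any PBS library.

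The order of levels differed between the groups at a few places. With PTH the order of means was Sdc4, Bgn, Cd44, Sdc1, Sdc2, Vcan, Gpc1, Dcn, Fmod and Lum, and with PBS it was Sdc4, Bgn, Cd44, Sdc1, Sdc2, Vcan, Dcn, Gpc1, Lum and Fmod. In PTH libraries Sdc4 overlaps Bgn, Vcan overlaps Gpc1, and Gpc1 overlaps Dcn, and the last pair, Fmod and Lum, overlaps too. In PBS libraries Vcan overlaps Dcn and no other neighbours overlap. The step from Sdc2 to Vcan was the widest between tested neighbours, 12.7-fold with PTH and 12.2-fold with PBS. The same 5 genes lay above this step in both groups.

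The spread within groups was larger with PTH. The coefficient of variation was 41.0% for Dcn, 41.1% for Vcan and 40.3% for Gpc1 with PTH, against 11.7, 10.7 and 6.51% with PBS. For Sdc4 it was 7.56 and 2.27%, for Bgn 8.98 and 1.73% and for Cd44 10.5 and 4.06% in PTH and PBS libraries. PTH library 1, which had the lowest mitochondrial share, held the highest PTH value of Sdc4, Sdc1 and Gpc1 and the lowest of Cd44, Sdc2 and Vcan. Whether these features are linked was not tested.

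The genes most like Sdc4 over the 7 libraries, by Pearson correlation of log2(FPKM + 1), were Cyr61 (0.99), a matricellular protein gene, Rgs2 (0.99), a brake on G protein signalling, and Ext1 (0.99), which polymerises heparan sulfate. The 3 most like Dcn were Nabp1, Slc7a6 and Snx27, each at 0.99. These are the highest values over tested genes with a proper symbol, placeholder names such as those starting with LOC or RGD being left out. They include the difference between the groups and are a description only.

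The genes that build, supply, bind and cut proteoglycans were called at about the rate of all genes. The 9 lists with 149 entries matched 142 genes, of which 74 were tested. Limma called 4 of them higher and 6 lower, 13.5% against 11.4% of all tested genes, and their median log2 fold change was -0.04, the same as over all tested genes to 2 decimals. The counts of single lists below stand against 3.45% higher and 7.96% lower among all tested genes, and most rest on 1 or 2 called genes.

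Of 16 tested genes of the linkage region and of chondroitin or dermatan sulfate synthesis 2 rose and 0 fell, with a median log2 fold change of 0.08. Chst12, a chondroitin 4-sulfotransferase, stood at 22.4, 23.7, 26.3 and 24.6 FPKM in PTH libraries 1 to 4, against 13.7, 13.6 and 14.5 FPKM in PBS libraries 1 to 3. For Chst12 the log2 fold change was 0.76 ± 0.08 (SE) with a limma adjusted p of 0.00488. Xylt2, which starts the chains by adding xylose to the core protein, rose by 0.33 ± 0.08 (SE) on the log2 scale, with a limma adjusted p of 0.0409. Both genes had every PTH library above every PBS library, as 12.7% of all tested genes did.

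Heparan sulfate synthesis and editing had 1 gene higher and 1 lower among 13 tested, with a median log2 fold change of -0.24. Ext1, a polymerase of the chain, stood at 79.6, 71.1, 72.8 and 72.2 FPKM in PTH libraries 1 to 4, against 106, 107 and 105 FPKM in PBS libraries 1 to 3. It fell by 0.51 on the log2 scale, with a limma adjusted p of 0.00755. Hs6st1, a 6-O-sulfotransferase, rose, at 10.9 to 12.7 FPKM in PTH libraries against 8.35 to 8.65 FPKM in PBS libraries (log2 fold change 0.39, adjusted p 0.0391). The partner of Ext1 in the polymerase, Ext2, stood at 28.3 FPKM with PTH and 26.5 FPKM with PBS, with an adjusted p of 0.410.

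Precursor supply had 3 of 14 tested genes lower and 0 higher, and 13 of the 14 had a log2 fold change below 0, against 55.4% of all tested genes. Ugdh, which makes the UDP-glucuronic acid used in every chain listed here except keratan sulfate, stood at 85.2, 90.5, 80.5 and 85.3 FPKM in PTH libraries 1 to 4, against 115, 116 and 117 FPKM in PBS libraries 1 to 3 (log2 fold change -0.44, limma adjusted p 0.0114). Gfpt2 and Uap1, which act in the synthesis of UDP-N-acetylglucosamine, fell by 0.52 and 0.27 on the log2 scale, with limma adjusted p of 0.0292 and 0.0446. Uap1 lost its call after quantile normalization, median centring and rescaling, with adjusted p of 0.0531, 0.0696 and 0.0528.

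Among 6 tested genes of hyaluronan synthesis, breakdown and binding 1 fell and 0 rose, with a median log2 fold change of -0.19. Tnfaip6, a secreted hyaluronan-binding protein induced in inflammation, stood at 8.07, 8.53, 5.71 and 5.63 FPKM in PTH libraries 1 to 4, against 12.2, 15.2 and 13.4 FPKM in PBS libraries 1 to 3, with a log2 fold change of -0.88 and a limma adjusted p of 0.0274. Of 10 tested intracellular partners of syndecans and CD44, 1 rose and 1 fell. Sdcbp, or syntenin, which binds the tails of syndecans, was at 71.9 to 91.6 FPKM in PTH libraries and 103 to 111 FPKM in PBS libraries (log2 fold change -0.45, adjusted p 0.0312). Ezr, or ezrin, which links CD44 to actin, was at 339 to 407 FPKM in PTH libraries and 299 to 308 FPKM in PBS libraries (log2 fold change 0.28, adjusted p 0.0462), and its sign turned with that covariate, the mitochondrial share (-0.025).

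The other lists held no called gene, and their counts at an unadjusted p under 0.05 stand against 33.9% of all tested genes. The only other small leucine-rich gene tested was Tsku, at 12.99 ± 1.35 FPKM with PTH (SD, n = 4) and 15.7 ± 0.517 FPKM with PBS (SD, n = 3), with a limma adjusted p of 0.111, while 9 of the 12 matched were listed at 0 in all libraries. Limma called 0 of 3 other cell-surface proteoglycans, with 1 lower at an unadjusted p under 0.05, and Tgfbr3, a TGF-beta co-receptor, came first with an adjusted p of 0.0930. It called 0 of 5 large, basement membrane and secreted proteoglycans, with 1 higher and 1 lower at an unadjusted p under 0.05, Srgn having the smallest p (adjusted p 0.124). Without PTH library 2, whose 27.7 FPKM alone reached the PBS values, Srgn passed at an adjusted p of 0.0103. That fit called 825 higher and 1925 lower over all tested genes. The sign of Srgn turned with the mitochondrial covariate (0.079). Limma called 0 of 6 proteases, with 1 higher and 2 lower at an unadjusted p under 0.05. Mmp14, a membrane metalloproteinase that sheds CD44 and syndecan 1, stood at 80.7 to 96.2 FPKM in PTH libraries and 70.6 to 73.9 FPKM in PBS libraries, with an adjusted p of 0.0523, and passed after quantile normalization at 0.0347, but its sign turned with the mitochondrial covariate (-0.043).

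**Figure D5:**
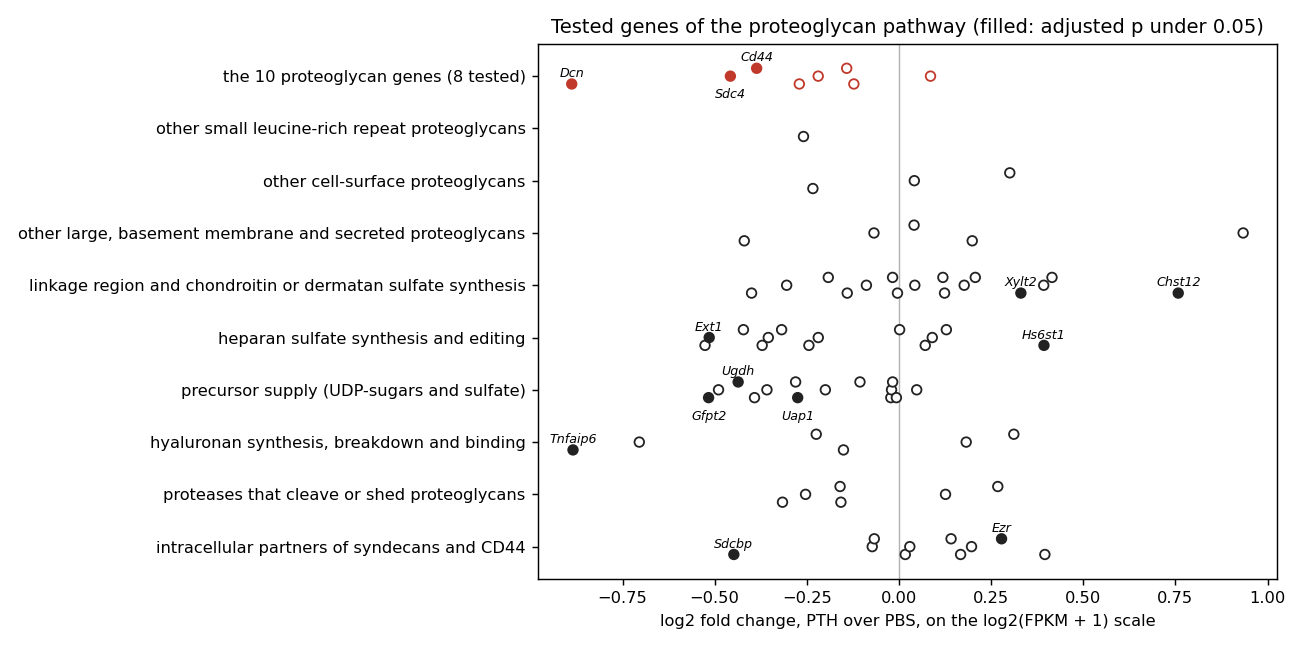
Log2 fold change, PTH over PBS (horizontal axis), of the 8 tested proteoglycan genes (red, top row) and of the 74 tested genes of 9 pathway lists (black), each point 1 gene, filled and named where the limma adjusted p is under 0.05. Filled points lie on both sides of 0, with 6 of the 10 list genes and 3 of the 3 proteoglycan genes lower.

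With the mitochondrial share as a covariate 0 of the 10 list calls remained, with limma adjusted p from 0.0539 to 0.921. Over all tested genes 0 were called higher and 1 lower in that fit. GC correction ended 5 of them, with adjusted p of 0.241 for Xylt2, 0.210 for Hs6st1, 0.0856 for Uap1, 0.0550 for Tnfaip6 and 0.0574 for Sdcbp. Of the 10 called list genes, all kept the call without PTH library 1 or 2, 2 without PTH library 3 (Chst12 and Ext1), 3 without PTH library 4 (those and Ugdh), 0 without PBS library 1, 1 without PBS library 2 (Chst12) and 2 without PBS library 3 (Chst12 and Ext1). Without PBS library 1 their limma adjusted p lay between 0.0531 and 0.179, and over all tested genes 3 were called higher and 25 lower. The counts over all tested genes with each other library left out are given with the calls of Dcn, Sdc4 and Cd44. The sign of every one of the 10 list genes was kept whichever library was left out.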

How the data were processed

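Per the file headers, the authors deposited FPKM values for 7 libraries in 2 tables split by direction, each row also holding a log2 fold change, a p-value and an FDR. The log2 column of the table of higher genes holds an infinite value and was checked only as a deposited score. Per the submitters' processing notes, Bowtie 0.12.2 and build mm8 were named. Which program made the FPKM values, with which strand setting and scaling, the sources used here do not say, so overlapping and antisense genes cannot be told apart.

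Values were taken as log2(FPKM + 1), with 1 row per symbol (the highest mean) and a mean of at least 1 FPKM, and fitted with limma 3.58.1 in R 4.3.3 with a variance trend and no covariate. The 10 genes, the lists and the tests were chosen with earlier results of these data known. Named genes are the 10, and up to 4 called genes per list or that with the smallest p. Also named are the 3 genes, placeholder names left out, most like each of the 2 called genes with the smallest p. Ext2, Hapln3 and the markers with values were named after their values were seen. GC content came from the human counterpart transcript for 9433 genes (GENCODE 29).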

Additional observations from a re-analysis of the deposited data

Results flagged for a closer look

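Over the 10 genes and the named list genes, 24 values with 4 PTH libraries were checked with Dixon's criterion, the distance of an extreme library to the next one over the full range, at its 95% critical value, and 2 exceeded it. Chance alone would pick out about 1 in 20 such groups, and the values share the same libraries. PTH library 2 held 166 FPKM of Bgn, against 137 to 142 FPKM in the other PTH libraries (gap over range 0.832). PTH library 1 held 0.119 FPKM of Lum, which is listed at 0 in the other 3 PTH libraries. With 3 tied values the gap over range is 1 whatever the other value is. Lum was therefore bound to exceed the criterion, and the rate of 1 in 20 does not apply to it. No explanation was tested.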

How the results depend on the processing

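Pseudocounts of 0.1 and 0.5, no filter, summing repeated symbols and GC correction kept the 3 lower calls among the 10 genes. A filter at a mean of 5 FPKM removed Dcn, Vcan and Gpc1 and left 2 calls. Quantile normalization, median centring, rescaling without mitochondrial mRNAs and a fit without variance trend left 2, since Cd44 then had an adjusted p of 0.0534, 0.0517, 0.0621 and 0.0618. The mitochondrial covariate left 0 and the replicate block left 0, with 2 and 4 of the 8 tested genes at an unadjusted p under 0.05. With the block the limma adjusted p of Sdc4, Dcn and Cd44 was 0.0890, 0.0975 and 0.0909. Libraries share replicate numbers between the groups, but same-numbered ones did not deviate together (correlations across genes of -0.0071, 0.0012 and -0.037), so no pairing was assumed. Sample quality weights gave 5 lower calls, adding Bgn and Sdc2. Leaving out 1 library gave 0 to 4 lower calls and 0 higher ones. Over all genes, higher and lower calls were 212 and 553 without a filter, 664 and 573 after quantile normalization, 593 and 554 after median centring, 590 and 569 after rescaling, 184 and 441 without variance trend, 2184 and 3466 with quality weights, 3 and 17 with the replicate block, and 0 and 1 with the mitochondrial covariate (1600 at an unadjusted p under 0.05). They ranged from 3 to 825 and from 25 to 1925 with 1 library left out. With GC correction 287 and 681 were called, against 401 and 924 of the same 9433 genes without it, a comparison added after seeing the data. Of the 10 list calls 0 remained with the replicate block (adjusted p 0.0692 to 0.149), 7 without a filter (Xylt2 0.0505, Hs6st1 0.0532 and Ezr 0.0582 lost) and 7 without variance trend (Xylt2 0.0514, Uap1 0.0640 and Ezr 0.0784 lost). Signs turned for 6 of the 8 genes tested, all but Dcn and Sdc4. With the mitochondrial covariate these were Bgn (0.0725), Vcan (1.002), Sdc1 (-0.31), Sdc2 (0.0411) and Cd44 (0.0508). GC correction turned Sdc1 (-0.0810) and the replicate block turned Gpc1 (0.0068). Leaving out 1 library moved Gpc1 between -0.27 and 0.0068, the positive value being that without PTH library 4. The replicate block gives this same estimate, since PTH library 4 has no same-numbered PBS library and drops out of the comparison. Why the signs turned was not tested in any of these cases. The 2 scalings of log values moved the median log2 fold change of all genes from -0.04 to 0.02 and 0.03. Read depth is unknown, which limits Lum, Fmod, Gpc1, Dcn and Vcan most.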

Other observations

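Hapln3, a link protein that ties hyaluronan to versican-type proteoglycans, had the highest log2 fold change of the tested list genes and did not pass. It stood at 3.62, 0.493, 1.89 and 0.650 FPKM in PTH libraries 1 to 4, against 0.253, 0.269 and 0.240 FPKM in PBS libraries 1 to 3. All PTH libraries were above all PBS libraries, over a wide range. The mean of Hapln3 over the 7 libraries, 1.06 FPKM, reached the filter only through the PTH libraries (mean 1.66 FPKM, against 0.254 FPKM with PBS). Its place among the tested genes, and so its rank, rests on the group where it was high. The log2 fold change was 0.93 ± 0.39 (SE) with a limma adjusted p of 0.133, and it turned to -1.17 with the mitochondrial share as a covariate. It was 0.62 without PTH library 1, in a fit that kept the filter taken over all 7 libraries, and 1.93 with a pseudocount of 0.1. With sample quality weights Hapln3 passed at a limma adjusted p of 0.00316. Hapln3 was singled out after its values were seen.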
